A study of Mus musculus with 6 samples.

Results

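Transcripts of 9 genes of mechanosensitive transcription were compared between reprogramming cultures with and without AKT activation: the YAP and TEAD factors *Yap1*, *Tead1* and *Tead2*, the serum response factor *Srf*, and the target and feedback genes *Ankrd1*, *Amotl2*, *Ajuba*, *Lats2* and *Axl*. The 9 genes were taken by name from 54331 genes listed, with earlier results of these data known. YAP, encoded by *Yap1*, is a coactivator without DNA-binding domain that enters the nucleus when cells are spread, stretched or sparse, and binds DNA through the TEAD proteins. The Hippo kinases, LATS2 among them, phosphorylate YAP and keep it in the cytoplasm, and several YAP targets encode proteins that hold YAP back in turn. SRF reads the state of actin through the MRTF coactivators and growth factor signals through the ternary complex factors, and fibroblasts use both systems to run their contractile and adhesive programme.

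All 6 libraries came from mouse embryonic fibroblasts of male E13.5 embryos of a mixed C57BL/6, DBA/2 and ICR background, which carry the Oct4-EGFP transgene, a green fluorescent reporter driven by *Oct4* regulatory DNA. Both groups carried retroviral Oct4, Sox2 and Klf4 (OSK) and AKT-MER (A), an AKT fused to a modified estrogen receptor that becomes active when 4-hydroxytamoxifen (4OHT) binds. The OSKA + 4OHT group (n = 3) received 4OHT and the OSKA − 4OHT group (n = 3) its ethanol vehicle, and RNA was taken from the bulk cultures at 10 days postinfection (dpi). The replicates were wells plated from transduced cells, so that p-values measure the spread between wells, which may be technical. In bulk cells, fewer cells of a type and less RNA per cell cannot be told apart. Without libraries of OSK cells given 4OHT, an effect of 4OHT itself and of active AKT cannot be told apart here. From microarrays of an earlier day, not used here, the paper describes the effect of 4OHT on OSK cells without AKT-MER as limited. Levels are TPM, the length-scaled share of transcripts in a library, and fold changes are differences of log2(TPM + 0.5), OSKA + 4OHT minus OSKA − 4OHT, tested with limma over 15382 genes whose mean TPM reached 1. A gene passed at an adjusted p under 0.05.

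Between 15814 and 18230 genes were above 0 TPM per library. The files give no read counts. The size of the smallest steps between low values put the relative depth of the libraries at 0.497 to 1, an approximate value, with OSKA − 4OHT replicates 1 and 3 lowest, at 0.497 and 0.542, and OSKA + 4OHT at up to 0.908. Over all genes, 845 passed (5.49% of those tested), 303 of them lower (1.97%) and 542 higher (3.52%) in OSKA + 4OHT, and the median log2 fold change was 0.14. TMM scaling and quantile normalization moved that median to 0.026 and −0.0047 and the share of higher calls from 64.1% to 48.9% and 49.7%. All 9 genes exceeded the minimum level and were tested.

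TEAD proteins recognise the word GGAATG, and SRF the CArG box. RefSeq promoter windows (build GRCm38.p6, 250 bases before to 50 after a transcription start) were found for 8 of the 9 genes. *Tead1* had none, and *Lats2* had a pair of windows. The TEAD word, read on both strands, occurred in 6 of these 9 windows, one or more for each of *Ankrd1*, *Ajuba*, *Amotl2*, *Axl*, *Lats2* and *Yap1*, against 14.7% of all 32851 windows and 12.3% of the 13543 windows of tested genes. The windows of *Ankrd1* and *Ajuba* each held 2 such words, as did 1.36% of all windows. The *Srf* window held 2 CArG boxes, at −82 and −62, where 1.63% of all windows held one or more and 6 windows held 2. A match describes the letters in the window and is not a measured binding site.

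The 250 bases before the start are given 5′ to 3′ for the promoters of 3 genes that fell (*Ankrd1*, *Amotl2*, *Axl*), for *Ajuba*, which has the same word 2 times but did not pass, and for *Srf*, with capitals marking the TEAD word on either strand (CATTCC is the other strand's reading) or, in *Srf*, the CArG box. They lie at chr19:36119845-36120094 (minus strand), chr9:102717554-102717803 (plus), chr7:25788734-25788983 (minus), chr14:54577662-54577911 (minus) and chr17:46556163-46556412 (minus).

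Ankrd1: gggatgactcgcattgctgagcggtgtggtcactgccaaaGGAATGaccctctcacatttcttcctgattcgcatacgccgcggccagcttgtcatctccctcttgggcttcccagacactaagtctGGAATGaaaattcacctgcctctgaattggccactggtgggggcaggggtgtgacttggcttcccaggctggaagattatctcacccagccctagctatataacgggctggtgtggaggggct

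Amotl2: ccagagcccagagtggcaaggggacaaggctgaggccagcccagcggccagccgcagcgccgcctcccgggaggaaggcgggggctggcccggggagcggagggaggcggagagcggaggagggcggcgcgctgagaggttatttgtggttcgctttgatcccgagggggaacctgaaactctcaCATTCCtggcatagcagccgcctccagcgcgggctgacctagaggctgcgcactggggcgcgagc

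Axl: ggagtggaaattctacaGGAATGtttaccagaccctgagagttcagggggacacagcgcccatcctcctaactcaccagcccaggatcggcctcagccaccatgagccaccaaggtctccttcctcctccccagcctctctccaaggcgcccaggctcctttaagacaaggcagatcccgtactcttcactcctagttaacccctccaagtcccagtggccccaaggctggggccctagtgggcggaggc

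Ajuba: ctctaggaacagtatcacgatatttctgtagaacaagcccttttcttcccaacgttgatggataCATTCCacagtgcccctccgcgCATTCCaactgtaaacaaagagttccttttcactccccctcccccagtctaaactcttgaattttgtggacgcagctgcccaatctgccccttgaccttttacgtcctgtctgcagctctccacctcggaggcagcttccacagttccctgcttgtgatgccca

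Srf: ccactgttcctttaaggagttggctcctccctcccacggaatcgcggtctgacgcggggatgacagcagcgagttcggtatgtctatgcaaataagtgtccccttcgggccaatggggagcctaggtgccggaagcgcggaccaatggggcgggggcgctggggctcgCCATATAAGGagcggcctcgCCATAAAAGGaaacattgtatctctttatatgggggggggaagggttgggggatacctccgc

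**Figure D1:**
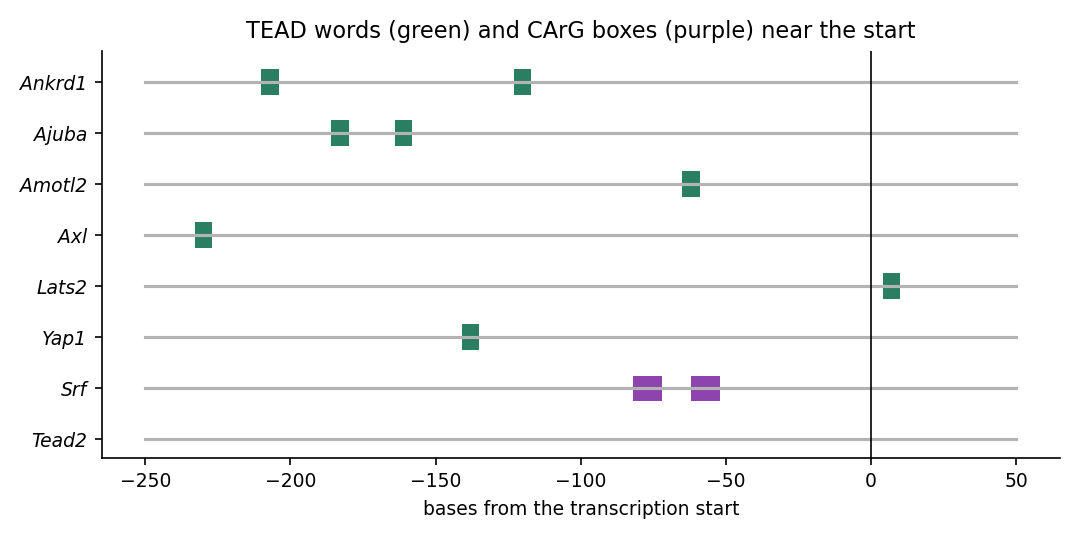
TEAD words (green) and CArG boxes (purple) along the promoter windows of 8 genes, with distance from the annotated transcription start in bases on the horizontal axis; for *Lats2* the window that holds a word is drawn. The words of *Ankrd1* begin at −210 and −123, those of *Ajuba* at −186 and −164, and that of *Amotl2* at −65, while the *Tead2* window holds neither motif.

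*Tead1* fell and *Yap1*, *Tead2* and *Srf* did not pass. *Yap1* (ENSMUSG00000053110, chr9:7931999-8004596) had 74.1, 50.6 and 72.7 TPM in the OSKA − 4OHT replicates and 65.1, 67.1 and 60.3 TPM in the OSKA + 4OHT replicates. The groups overlapped, with means of 65.8 ± 13.2 and 64.2 ± 3.49 TPM (SD, n = 3 each), and the log2 fold change was −0.016 (95% interval −0.47 to 0.43, adjusted p = 0.976).

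*Tead1* (ENSMUSG00000055320, chr7:112679318-112906807), which encodes a DNA-binding partner of YAP, had 60.2, 66.1 and 64.5 TPM without 4OHT and 38.9, 36.8 and 33.0 TPM with it. Every OSKA + 4OHT library was below every OSKA − 4OHT library, and the mean was 1.76-fold lower (63.6 ± 3.03 against 36.2 ± 3.01 TPM; log2 fold change −0.81, SE 0.14, adjusted p = 0.0290). Its adjusted p was 0.0470 without OSKA + 4OHT replicate 3 and between 0.0560 and 0.0730 without any one of the other libraries, where the call was lost. *Tead2* (ENSMUSG00000030796, chr7:45215753-45233644), its paralog, had 55.8, 38.5 and 41.5 TPM and then 72.4, 51.4 and 36.3 TPM. The *Tead2* groups overlapped, and both its lowest and its highest library were OSKA + 4OHT (log2 fold change 0.20, 95% interval −0.49 to 0.89, adjusted p = 0.730).

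The order of the pair therefore differed between the groups: *Tead1* exceeded *Tead2* in 3 of 3 OSKA − 4OHT libraries and *Tead2* exceeded *Tead1* in 3 of 3 OSKA + 4OHT libraries. *Tead1* made up 40.4% to 46.8% of the summed TPM of *Tead1* to *Tead4* without 4OHT and 28.2% to 29.4% with it. The summed TPM of the 4 genes was 146.8 ± 8.14 and 125.3 ± 12.8 (SD, n = 3 each), and the lowest OSKA − 4OHT sum, 137.9 TPM, was just above the highest OSKA + 4OHT sum, 137.7 TPM. *Tead3* and *Tead4* had log2 fold changes of −0.085 (adjusted p = 0.939) and −0.040 (adjusted p = 0.933), with overlapping groups. The shares are descriptions and were not tested.

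The mRNA of TAZ, the paralog of YAP encoded by *Wwtr1*, averaged 116.1 ± 12.1 TPM in OSKA − 4OHT and 78.0 ± 2.17 TPM in OSKA + 4OHT. Its groups did not overlap, but it missed the threshold (log2 fold change −0.57, adjusted p = 0.0632), and it passed with TMM scaling (adjusted p = 0.0379) and with quantile normalization (adjusted p = 0.0432). *Yap1* made up 29.9% to 41.4% of the summed *Yap1* and *Wwtr1* TPM without 4OHT and 43.9% to 46.7% with it. Of the 10 YAP and TEAD factors and cofactors listed, 8 were tested; *Tead1* was the one that passed, where 5.49% of all tested genes passed, 1.97% as lower. *Vgll1* was listed at 0 in every library.

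**Figure D2:**
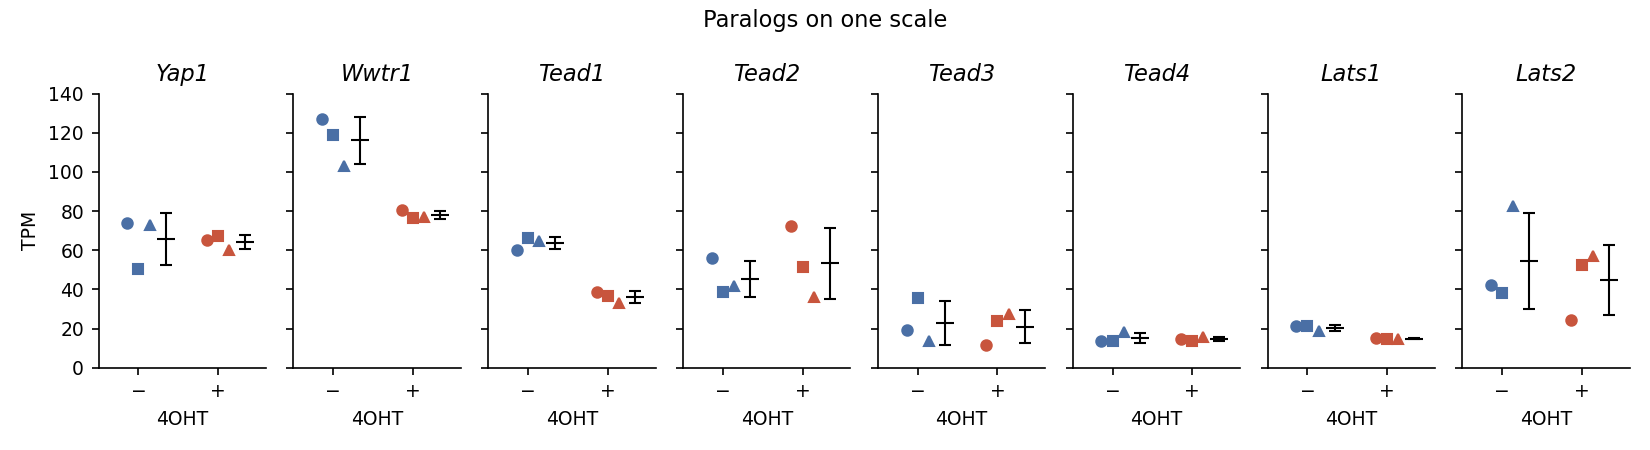
TPM (vertical axis, one scale from 0) of *Yap1* and *Wwtr1*, *Tead1* to *Tead4*, and *Lats1* and *Lats2* in the OSKA − 4OHT (blue) and OSKA + 4OHT (red) libraries, with circles, squares and triangles for replicates 1, 2 and 3 and black bars for the mean ± SD. *Tead1* drops from 60.2 to 66.1 TPM to 33.0 to 38.9 TPM, below *Tead2*, and *Wwtr1* is above *Yap1* in each of the 6 libraries.

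*Srf* (ENSMUSG00000015605, chr17:46548329-46556175) varied most within a group among the 4 factors. It had 34.7, 14.3 and 12.8 TPM in OSKA − 4OHT and 19.0, 24.9 and 33.8 TPM in OSKA + 4OHT. OSKA − 4OHT replicate 1 was the highest of the 6 libraries and the other two of its group the lowest, giving a coefficient of variation of 59.5%. The log2 fold change was 0.43 with a 95% interval of −0.59 to 1.45 (adjusted p = 0.601), so that a difference of either sign lay within the spread between wells.

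Among the 5 target and feedback genes, *Amotl2*, *Axl* and *Ankrd1* fell, their mean TPM being at least 3.15-fold lower in OSKA + 4OHT, and *Ajuba* and *Lats2* did not pass. *Amotl2* (ENSMUSG00000032531, chr9:102716672-102733418) encodes an angiomotin family protein that binds YAP at cell junctions and restrains it. It had 259.7, 187 and 177 TPM in OSKA − 4OHT and 49.9, 40.8 and 20.7 TPM in OSKA + 4OHT. The lowest OSKA − 4OHT library was above the highest OSKA + 4OHT library, with means of 208.0 ± 45.1 and 37.1 ± 14.9 TPM, 5.60-fold apart (log2 fold change −2.54, SE 0.35, adjusted p = 0.0143). Its adjusted p was 0.0279 without OSKA + 4OHT replicate 3 and 0.0544 to 0.0736 without any one of the others. Of the angiomotin family, *Amotl2* held 78.1% to 82.3% of the TPM without 4OHT and 31.4% to 56.6% with it, while *Amotl1* and *Amot* had overlapping groups (log2 fold changes −0.23 and −0.37).

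*Axl* (ENSMUSG00000002602, chr7:25757273-25788705), a receptor tyrosine kinase for the ligand GAS6, was the most abundant of the 9 genes. Its levels were 414, 366 and 359.7 TPM in OSKA − 4OHT and 120.6, 117 and 97.2 TPM in OSKA + 4OHT. The wells of a group lay close together, and the mean was 3.41-fold lower with 4OHT (380.1 ± 29.8 against 111.6 ± 12.6 TPM; log2 fold change −1.77, 95% interval −2.09 to −1.45, adjusted p = 0.00366). *Axl* passed in each of the 13 alternative settings, with adjusted p-values from 0.00228 to 0.0499.

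*Ankrd1* (ENSMUSG00000024803, chr19:36111961-36120099), which encodes an ankyrin repeat protein of the sarcomere and nucleus and is widely used as a readout of YAP, was the least abundant. It had 14.9, 13.6 and 8.69 TPM in OSKA − 4OHT and 3.33, 3.46 and 5.01 TPM in OSKA + 4OHT. These levels correspond to about 8.39 to 40.5 reads per library, an approximate estimate. The groups did not overlap, with means of 12.4 ± 3.27 and 3.93 ± 0.934 TPM, 3.15-fold apart (log2 fold change −1.53, SE 0.30, adjusted p = 0.0402). The call was lost without any one library (adjusted p = 0.0605 to 0.152) and with no filter on low values (adjusted p = 0.0764).

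*Ajuba* (ENSMUSG00000022178, chr14:54567472-54577558) encodes a LIM protein that binds and inhibits LATS kinases. It had 20.0, 19.7 and 16.2 TPM without 4OHT and 14.5, 14.6 and 12.9 TPM with it. Each OSKA + 4OHT library was below each OSKA − 4OHT library, but the difference did not pass (log2 fold change −0.39, 95% interval −0.82 to 0.036, adjusted p = 0.273).

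*Lats2* (ENSMUSG00000021959, chr14:57689662-57758388), the Hippo kinase that is itself a YAP target, had 42.5, 38.4 and 82.4 TPM and then 24.4, 52.5 and 57.2 TPM. Its highest library was OSKA − 4OHT replicate 3 and its lowest OSKA + 4OHT replicate 1, the groups overlapped, and the log2 fold change was −0.29 (95% interval −1.32 to 0.74, adjusted p = 0.738). *Lats2* shares 41.2% of its transcripts' 50-base words with the overlapping gene *Gm49361*, to which reads could be split; *Gm49361* was listed at 0.475 TPM in OSKA − 4OHT replicate 1 and at 0 in the other libraries. The paralog *Lats1* averaged 20.4 ± 1.46 and 14.9 ± 0.203 TPM, with groups that did not overlap and an adjusted p of 0.185 (log2 fold change −0.44).

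**Figure D3:**
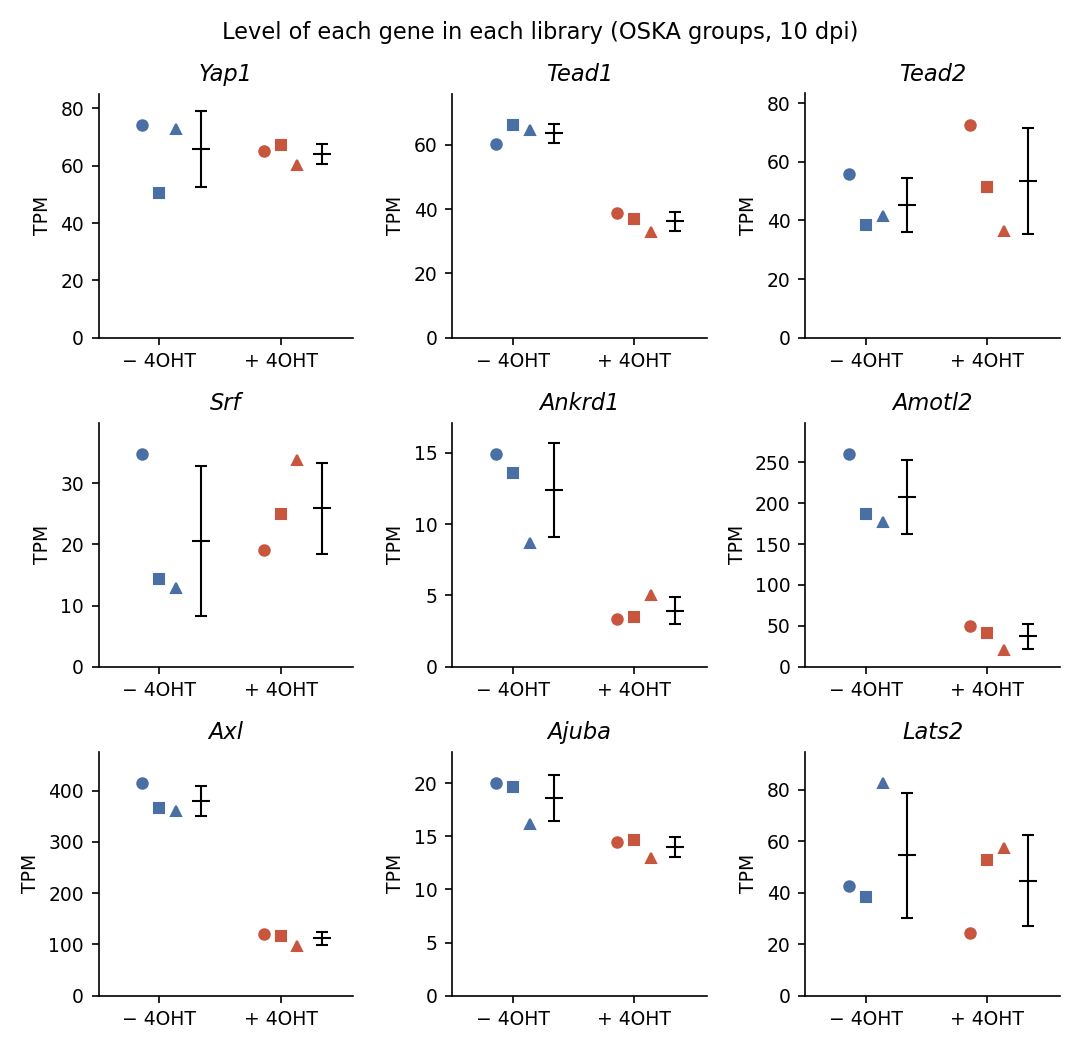
TPM of each of the 9 genes (vertical axis, from 0) in the 3 OSKA − 4OHT and 3 OSKA + 4OHT libraries, with circles, squares and triangles for replicates 1, 2 and 3 and black bars for the mean ± SD. *Tead1*, *Ankrd1*, *Amotl2*, *Ajuba* and *Axl* show groups that do not overlap, and *Yap1*, *Tead2*, *Srf* and *Lats2* groups that do.

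In all, 4 of the 9 genes passed, all of them lower, where 1.97% of tested genes passed in that direction, and 5 of 9 had groups that did not overlap with OSKA + 4OHT lower, as did 10.0% of tested genes. An unadjusted p under 0.05 was reached by the same 4 genes and by 21.3% of all tested genes. No member passed as higher. The count was 3 without OSKA + 4OHT replicate 3 and 1, *Axl*, without any one of the other libraries. The median log2 fold change of the 9 was −0.39, against 0.14 over all tested genes. Ordered by mean TPM, *Axl* led in both groups. *Amotl2* was next in OSKA − 4OHT, its libraries clear of those of *Axl* above and of *Yap1* below, whereas in OSKA + 4OHT its libraries overlapped those of *Lats2* and *Tead1*. Neighbours overlapped from *Yap1* through *Tead1* and *Lats2* to *Tead2* in OSKA − 4OHT, and *Srf* overlapped *Ajuba*. In OSKA + 4OHT they overlapped from *Yap1* through *Tead2*, *Lats2*, *Amotl2* and *Tead1* to *Srf*. *Ankrd1* was last in both groups, and its highest library was below the lowest of *Ajuba* in each group.

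**Figure D4:**
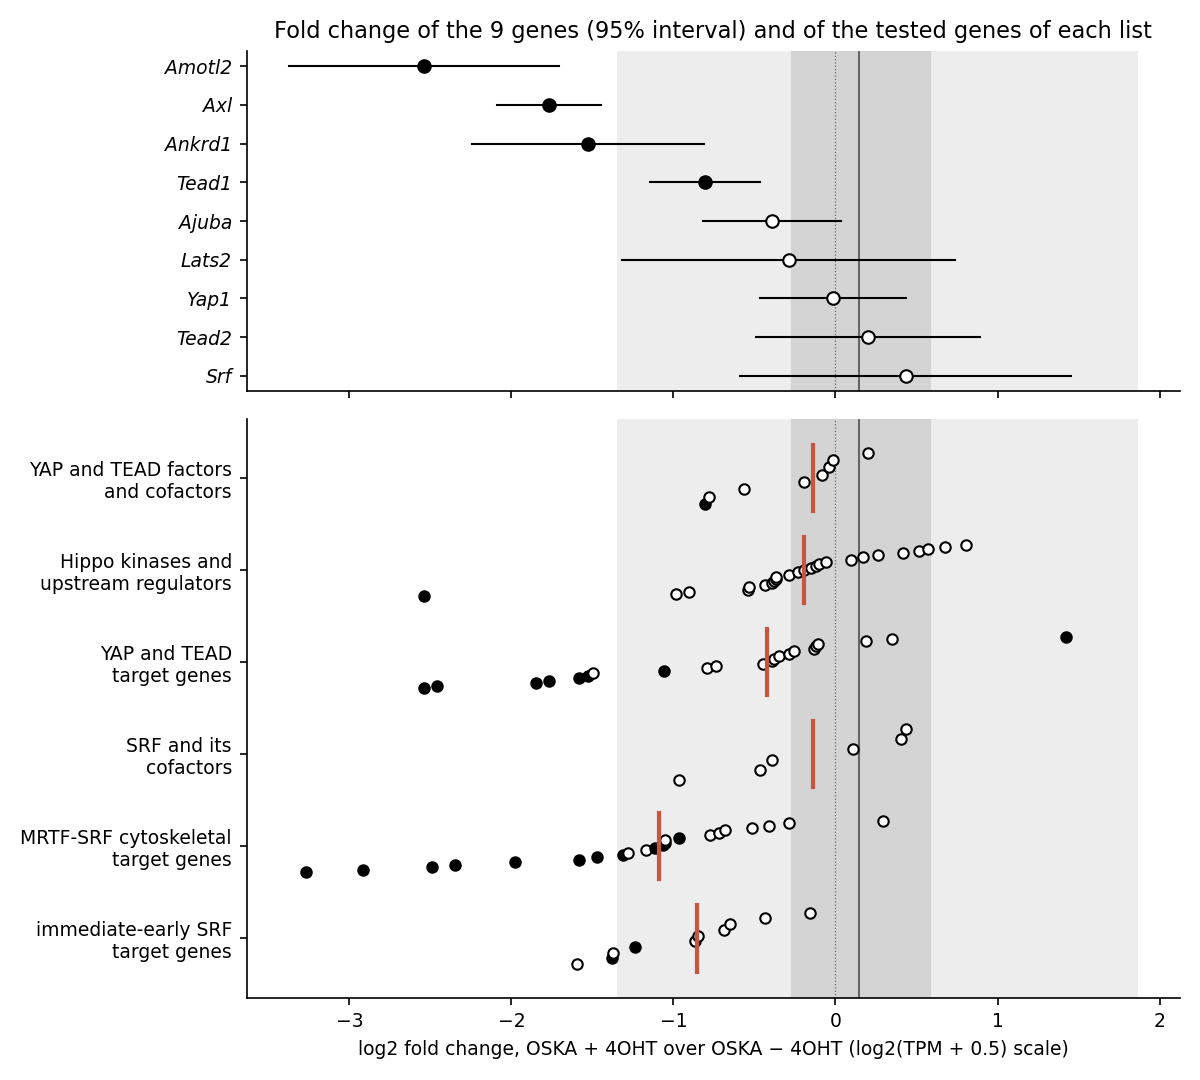
Log2 fold change (OSKA + 4OHT over OSKA − 4OHT, horizontal axis) of the 9 genes with 95% intervals (upper panel) and of the tested genes of 6 lists (lower panel), where filled points passed, red bars are list medians, the grey line is the median of all tested genes and the grey bands hold their central 50% and 90%. *Amotl2*, *Axl* and *Ankrd1* lie below the wider band, which starts at −1.34, and *Yap1*, *Tead2* and *Srf* lie inside the inner band, from −0.27 to 0.59.

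Of 23 YAP and TEAD target genes, 22 were tested, 7 fell and 1 rose, and 14 had groups that did not overlap with OSKA + 4OHT lower. Of all tested genes 1.97% fell, 3.52% rose and 10.0% had such groups. The median log2 fold change of the list was −0.42, against 0.14 over all tested genes. The count that passed in either direction was 4 without OSKA + 4OHT replicate 1, 5 without OSKA − 4OHT replicate 1 or 2 or OSKA + 4OHT replicate 2, and 6 without either of the other two. Leaving out the 5 genes described above, 4 of 17 fell and 1 rose. The matricellular genes *Ccn1* and *Ccn2*, the most used readouts of YAP, were both among those that fell. *Ccn2* had 823, 751 and 662 TPM without 4OHT and 240.4, 273 and 232 TPM with it, and means of 745 ± 80.8 and 248 ± 21.6 TPM (log2 fold change −1.58, SE 0.13, adjusted p = 0.00367). *Ccn1* averaged 512 ± 85.0 and 245 ± 30.9 TPM, with no overlap (log2 fold change −1.06, SE 0.17, adjusted p = 0.0220). The *Ccn1* call held without OSKA − 4OHT replicate 3 (adjusted p = 0.0439) and was lost without any one of the other libraries (0.0677 to 0.0920). The other two that fell were *Ccdc80*, a matrix protein gene (log2 fold change −2.46, adjusted p = 0.00367), and *F3*, tissue factor (−1.85, adjusted p = 0.00586). They are named here after their values were seen.

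The single target that rose was *Nt5e*, the ectonucleotidase CD73, at 17.6, 15.1 and 16.8 TPM without 4OHT and 43.5, 52.6 and 39.4 TPM with it (2.74-fold higher; log2 fold change 1.42, SE 0.18, adjusted p = 0.0113). Its adjusted p was 0.0586 without OSKA + 4OHT replicate 1. For *Ccn2*, 17.2% of the 50-base words occur on the other strand of other genes' transcripts, most often those of *Gm15270*. That antisense gene averaged 14.6 TPM in OSKA − 4OHT. The libraries were made with a kit that keeps the strand, while the strand setting of the quantification is not given in the sources used here.

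**Figure D5:**
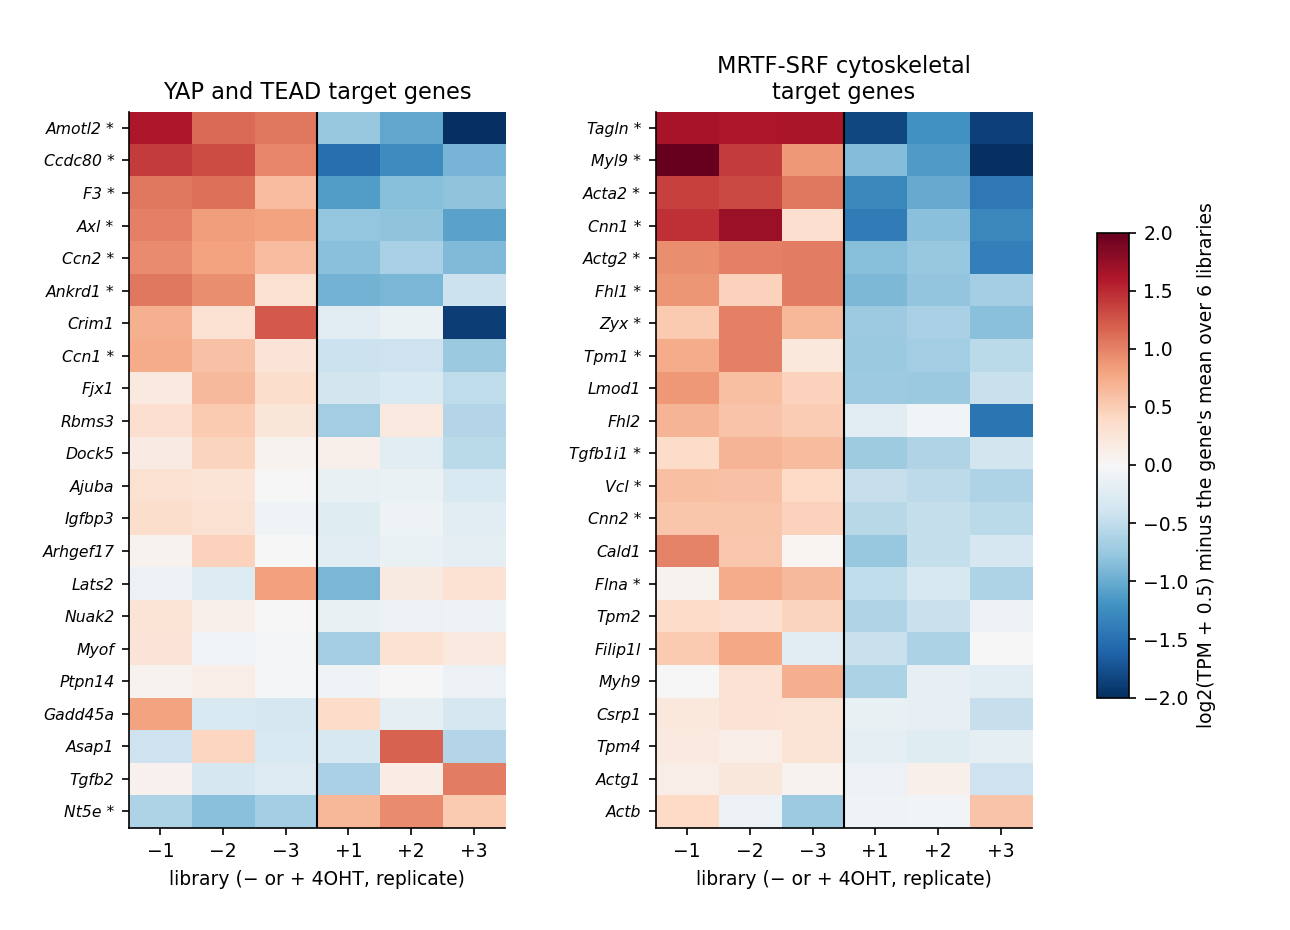
Heat map of log2(TPM + 0.5) minus each gene's mean over the 6 libraries for the tested YAP and TEAD targets (left) and MRTF-SRF targets (right), genes ordered by fold change, columns by group and replicate, colours held to ±2 and asterisks marking genes that passed. In the left panel 7 genes passed as lower and *Nt5e* as higher, and in the right panel 12 passed as lower, with *Actb* at the foot.

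Among the Hippo kinases and upstream regulators, all 25 listed genes were tested and the one that passed was *Amotl2*, a share near the 5.49% of all tested genes that passed; 8 had groups that did not overlap with OSKA + 4OHT lower and 4 with it higher, shares of all tested genes being 10.0% and 18.1%. The list's median log2 fold change was −0.20. Outside the YAP targets, *Wwc2*, of the KIBRA family, averaged 27.9 ± 3.69 and 14.7 ± 2.30 TPM (adjusted p = 0.0564), and the kinase gene *Stk3* averaged 47.5 ± 10.7 and 75.3 ± 10.2 TPM (adjusted p = 0.133), neither past the threshold and both chosen after their values were seen.

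On the SRF side, none of the 6 tested genes for SRF and its cofactors passed with limma, and 1 had an unadjusted p under 0.05, near the share of 21.3% over all tested genes, the ternary complex factor gene *Elk4* (log2 fold change −0.96, unadjusted p = 0.00931, adjusted p = 0.0945). The coactivator genes *Mrtfa* and *Mrtfb* had log2 fold changes of −0.39 (adjusted p = 0.589) and 0.11 (adjusted p = 0.869), with overlapping groups, and the sign for *Mrtfb* was negative with TMM scaling (−0.012) and quantile normalization (−0.069).

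Cytoskeletal targets of MRTF and SRF fell where *Srf* itself did not pass. All 22 were tested, 12 fell and none rose, 19 had groups that did not overlap with OSKA + 4OHT lower (of all tested genes 1.97% fell and 10.0% had such groups), and the median log2 fold change was −1.09. The count was 5 without OSKA + 4OHT replicate 1, 6 without OSKA + 4OHT replicate 2 and 7 without OSKA − 4OHT replicate 2. *Tagln*, transgelin or SM22, had 291, 282 and 287 TPM in OSKA − 4OHT and 25.6, 39.5 and 24.9 TPM in OSKA + 4OHT, 9.55-fold lower (log2 fold change −3.27, SE 0.20, adjusted p = 0.00328). For *Tagln*, 58.4% of the 50-base words occur on the other strand of other genes' transcripts, most often those of *Gm48529*. That antisense gene averaged 4.15 TPM in OSKA − 4OHT. The smooth muscle actin gene *Acta2* (log2 fold change −2.49, adjusted p = 0.00328) and the calponin gene *Cnn1* (−2.35, adjusted p = 0.0266) were also among the 12. The one gene of the list with a positive fold change was *Actb*, cytoplasmic beta-actin, which did not pass (0.29, adjusted p = 0.628).

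The immediate-early SRF targets all had negative log2 fold changes, from −1.59 to −0.16, with a median of −0.86. Of the 10, 2 fell (0 without replicate 2 of either group) and 8 had groups that did not overlap with OSKA + 4OHT lower, against 1.97% and 10.0% of all tested genes. With TMM scaling 6 fell. *Fosb*, an AP-1 subunit gene, averaged 40.9 ± 6.70 and 15.8 ± 4.70 TPM (log2 fold change −1.38, adjusted p = 0.0422), and the phosphatase gene *Dusp1* lay at 156 to 179.6 and 61.5 to 83.5 TPM (−1.24, adjusted p = 0.0116). The *Fosb* call was lost without any one library (adjusted p = 0.0666 to 0.126). *Fos* and *Egr1* did not pass (adjusted p = 0.113 and 0.0567). CArG boxes stood in 34.8% of 23 promoter windows of the cytoskeletal list and 36.4% of 11 of the immediate-early list, against 1.63% of all windows. TEAD words stood in 72.7% of 11 windows of the YAP and TEAD factors and cofactors, against 14.7% of all windows. Of that list 1 of 8 tested genes passed, *Tead1*, for which no window was found. The share was 44.4% in 18 windows of the YAP and TEAD targets and 33.3% in 24 windows of the Hippo list. It was 26.1% in the cytoskeletal and 18.2% in the immediate-early windows. For SRF and its cofactors, 9.09% of 11 windows held a TEAD word and 9.09% a CArG box.

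Some cell type markers also differed between the groups, and their part in the results was not tested. For the counts that follow, 3.52% of all tested genes rose and 1.97% fell. The summed TPM of 10 fibroblast markers was 9895 to 11436 in OSKA − 4OHT and 6458 to 7732 in OSKA + 4OHT. Of the 10, 3 fell, most of all *S100a4*, and 2 rose, most of all the proteoglycan gene *Lum* (7.26 ± 1.61 and 39.1 ± 2.23 TPM). The other that rose was the collagen gene *Col3a1* (433 ± 12.2 and 1023 ± 140 TPM, adjusted p = 0.00582), named after its values were seen. By sign, 6 were lower and 4 higher. Groups did not overlap for 5 with OSKA + 4OHT lower and 4 with it higher, against 10.0% and 18.1% of all tested genes. The 6 pluripotency markers had a summed level of 2.87 to 3.69 and 35.9 to 52.3 TPM, and *Dppa5a* was listed at 0 in every OSKA − 4OHT library. Of these markers 4 passed as higher, but 3 of the 4 averaged under 1 TPM in OSKA − 4OHT and were tested only through their OSKA + 4OHT level, which fixed the direction of the call, so that their count is no measure of the list. Of 10 epithelial markers, 9 were tested and 3 rose, *Krt8* the most, and their sum was 42.0 to 105.1 and 179.6 to 204.6 TPM. Of 6 macrophage markers 1 fell, *Lyz2* (95.2 ± 5.63 and 51.8 ± 7.77 TPM), with sums of 117 to 131 and 73.4 to 83.6 TPM. *Lyz2* made up most of these sums, and it shares 15.4% of its 50-base words with *Lyz1*. By sign, 4 of the 6 were lower and 2 higher. Those 2, named after their values were seen, were *Cd68* (log2 fold change 0.34, adjusted p = 0.470) and *Aif1* (1.19, adjusted p = 0.567). The 5 endothelial and 6 muscle markers gave sums of 21.4 to 37.6 TPM and 8.98 to 23.4 TPM over the 6 libraries; none of the 2 endothelial and 3 muscle markers that were tested passed with limma, and 1 of each list had an unadjusted p under 0.05, as did 21.3% of all tested genes. The muscle regulators *Myog* and *Myod1* were listed at 0 in every library. The *S100a4* call was lost without OSKA − 4OHT replicate 2 (adjusted p = 0.0512), that of *Krt8* without any library but OSKA − 4OHT replicate 3 (0.0908 to 0.125), and that of *Lyz2* without any library but OSKA + 4OHT replicate 3 (0.0762 to 0.0987).

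The genes most like the 5 target and feedback genes were sought by the Pearson correlation of log2(TPM + 0.5) with their mean standardised profile, over 6 libraries and 8791 other genes whose mean TPM reached 10. The 5 highest were *Kctd10* (r = 0.996), *Aebp1* (0.996), *Hus1* (0.995), *Moxd1* (0.994) and *Slc7a2* (0.994), and 407 genes were over 0.9. The points share the 2 groups, so that any gene lower in OSKA + 4OHT with little spread ranks high. Each of the 5 was lower in every OSKA + 4OHT library, for example *Aebp1* at 32.1, 28.1 and 29.9 TPM and then 10.3, 11.6 and 11.7 TPM (log2 fold change −1.39, adjusted p = 0.00950).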

How the data were processed

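Polyadenylated RNA of 6 libraries, made with a stranded kit, was read by the authors as 50-base single ends, trimmed with Trim Galore and quantified with Salmon against a mouse transcriptome. The deposited table holds scaled TPM values per gene beside the authors' own comparison (log2 fold changes, test statistics, p-values), which was not used; versions, the transcriptome release and the strand setting of Salmon are not given in the sources used here. Symbols and positions came from GENCODE M21 (GRCm38).

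TPM values are not counts, so log2(TPM + 0.5) of 15382 genes whose mean TPM reached 1 was fitted with limma 3.58.1 (R 4.3.3, trend, 2-sided, no block), with Benjamini-Hochberg adjustment over all of them; an exact permutation test of 3 against 3 cannot go below 0.1. Alternatives were pseudocounts of 0.1 and 1, no filter, a mean of at least 5 TPM, TMM scaling (unweighted), quantile normalization, a replicate block and each library left out. On simulated data for this comparison (15382 genes), 5% of 100 genes changed by a log2 of 1 and 39% of 100 changed by 2 were recovered, with 5 false calls.

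Named genes were the 9 genes, the largest rise and fall of each list among genes that passed, 8 partners (*Ccn1*, *Ccn2*, *Wwtr1*, *Mrtfa*, *Mrtfb*, *Tead3*, *Tead4*, *Lats1*) and the 5 genes of most similar profile; others are said to be chosen afterwards or serve as examples. The genes and lists were chosen with earlier results of these data known. Relative depth and the value of 1 read were estimated from steps between low values of genes with a single transcript over 600 bases, assuming 250-base fragments. Reads of a gene with more transcripts, such as *Ankrd1*, were computed with its longest transcript. Python 3.11.15 searched the promoter windows.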

Additional observations from a re-analysis of the deposited data

How the results depend on the processing

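Pseudocount and filter changes kept the 4 calls among the 9 genes except that of *Ankrd1* with no filter (adjusted p = 0.0764). With the replicate block, 47 genes passed in all, 1 of the 9 genes (*Axl*), 0 factors, 0 Hippo genes, 2 YAP and TEAD targets, 3 MRTF-SRF targets and 0 immediate-early genes. The replicate numbers are not known to pair wells: deviations of same-numbered libraries correlated at 0.0235, 0.0341 and 0.0837. Each library correlated best with its own number, except OSKA + 4OHT replicate 1, which reached 0.0327 with OSKA − 4OHT replicate 2. Both TMM scaling and quantile normalization gave 3 factors and 2 Hippo genes, and 6 and 4 immediate-early genes; a mean of at least 5 TPM gave 2 Hippo and 4 immediate-early genes, and no filter 1 immediate-early gene. The cause was not tested. With single libraries left out, which leaves 1 group with 2, the counts were 205 to 505 genes in all, 1 to 3 of the 9, 0 to 1 factors, 0 to 1 Hippo genes, 4 to 6 YAP and TEAD targets, 5 to 9 MRTF-SRF targets and 0 to 2 immediate-early genes. Log2 fold changes that crossed 0 then ran from −0.19 to 0.079 for *Yap1*, −0.047 to 0.45 for *Tead2*, −0.51 to 0.096 for *Lats2*, −0.092 to 0.37 for *Mrtfb*, −0.39 to 0.28 for *Tead3*, −0.11 to 0.096 for *Tead4* and −0.42 to 0.034 for the median of SRF and its cofactors; *Mrtfb* was also at −0.012 with TMM scaling and −0.069 with quantile normalization. None of these had passed. Depth is known only approximately, and *Ankrd1* rests on few reads.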

Other observations

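*Srf* and *Actb*, set side by side after their values were seen, were both highest in OSKA − 4OHT replicate 1 and OSKA + 4OHT replicate 3. *Actb* had 8769, 6158 and 4014 TPM in OSKA − 4OHT and 6293, 6404 and 9910 TPM in OSKA + 4OHT, and *Srf* had its lowest value, 12.8 TPM, in the library where *Actb* was lowest. *Amotl2*, *Tead1* and *Axl* were at their lowest in OSKA + 4OHT replicate 3, at 20.7, 33.0 and 97.2 TPM, whereas *Ankrd1* was at its highest of that group there, at 5.01 TPM.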
